A study of Mus musculus with 8 samples.

Results

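The genes described here are 10 negative regulators of the extracellular signal-regulated kinase (ERK) pathway, namely the dual-specificity phosphatases Dusp2, Dusp4, Dusp5, Dusp6, Dusp7 and Dusp10, the Sprouty genes Spry1 and Spry2, and the Sprouty-related genes Spred1 and Spred2. They are 10 of 22180 mouse genes that a probe set with a single gene symbol represents on the array, and each stands for its brightest probe set over all 8 arrays. RNA came from CD4 single-positive (CD4SP) thymocytes, T cells of the thymus that have chosen the CD4 lineage, sorted from mice on a C57BL/6 background. A total of 4 arrays hold wild-type (WT) cells and 4 hold cells labelled Pggt1b_KO (KO), and no agent, age or litter is given for either genotype. The study asked how protein geranylgeranylation bears on the exit of thymocytes from the thymus, and Pggt1b encodes the catalytic subunit of the enzyme that attaches this lipid to small GTPases. The sources used here do not say how the allele was made or which cells lose the gene. Nothing in the labels says that the arrays of a genotype come from separate animals, so a spread between arrays may be technical.

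ERK is the last kinase of a cascade in which Ras activates RAF, RAF activates MEK, and MEK phosphorylates ERK on a threonine and a tyrosine. The dual-specificity phosphatases remove both phosphates, whereas Sprouty and SPRED proteins act higher up and restrain Ras and RAF. Many of these genes are switched on by ERK itself, so they form a feedback loop, and their transcripts are widely read as a trace of recent ERK activity. In thymocytes the T cell receptor drives this cascade, and ERK signalling is needed for positive selection.

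These 10 genes were picked out because their levels differed between KO and WT in these same arrays, as a family with falls and no rises. Their differences between the genotypes are therefore given as descriptions, and no p-value is attached to them. Values are log2 intensities after robust multi-array averaging (RMA). A unit of 1 is a doubling of intensity, which background signal compresses at low levels. Levels of different genes come from different probes and were not set against each other.

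Among the nuclear, signal-induced phosphatases, Dusp4 and Dusp5 were lower in KO and Dusp2 was not. Dusp4, which acts on ERK and on the stress kinases, stood at 7.83, 7.89, 7.43 and 7.74 in WT replicates 1 to 4 and at 6.51, 6.87, 6.98 and 7.20 in KO replicates 1 to 4. Every KO array lay below every WT array, and the KO arrays were spread more widely. Its mean was 7.72 ± 0.205 in WT and 6.89 ± 0.292 in KO (SD, n = 4), a difference of -0.83 ± 0.146 SE or 1.78-fold lower in KO. Dusp5, a nuclear phosphatase selective for ERK, read 9.91, 10.02, 10.01 and 9.98 in WT and 9.57, 9.49, 9.68 and 9.40 in KO. The WT arrays were tightly grouped and the KO arrays were all lower, with means of 9.98 ± 0.049 and 9.54 ± 0.120 (SD, n = 4), a difference of -0.44 ± 0.065 SE or 1.36-fold lower. Dusp2, also nuclear and abundant in activated lymphocytes, read 9.95, 9.69, 10.01 and 9.61 in WT and 10.16, 10.03, 10.02 and 9.75 in KO. The genotypes overlapped, and the difference of 0.17 ± 0.110 SE was below the SD of WT, 0.196.

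Of the cytoplasmic, ERK-selective phosphatases, Dusp6 was lower in KO and Dusp7 overlapped between the genotypes. Dusp6, the prototype feedback phosphatase that binds ERK and holds it in the cytoplasm, read 10.80, 10.69, 10.76 and 10.71 in WT and 10.07, 9.92, 9.95 and 9.73 in KO. The genotypes were separated by a gap of 0.617 log2 between the lowest WT and the highest KO array, the widest gap of the 10 genes. The means were 10.74 ± 0.048 and 9.92 ± 0.142 (SD, n = 4), a difference of -0.82 ± 0.071 SE or 1.77-fold lower in KO. A second, dim probe set named Dusp6 averaged 3.85 over all arrays and differed by -0.22, with overlapping genotypes. Dusp7, a close relative of Dusp6, read 9.60, 9.59, 9.64 and 9.85 in WT and 9.88, 9.76, 9.81 and 9.97 in KO. Only WT replicate 4 reached into the KO range, and the difference was 0.19 ± 0.072 SE. Dusp10, which prefers the stress kinases JNK and p38 to ERK, read 10.43, 10.62, 10.59 and 10.41 in WT and 10.32, 10.30, 10.30 and 10.19 in KO. All KO arrays were lower, by a gap of 0.083, and the difference was -0.23 ± 0.064 SE or 1.18-fold.

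**Figure D1:**
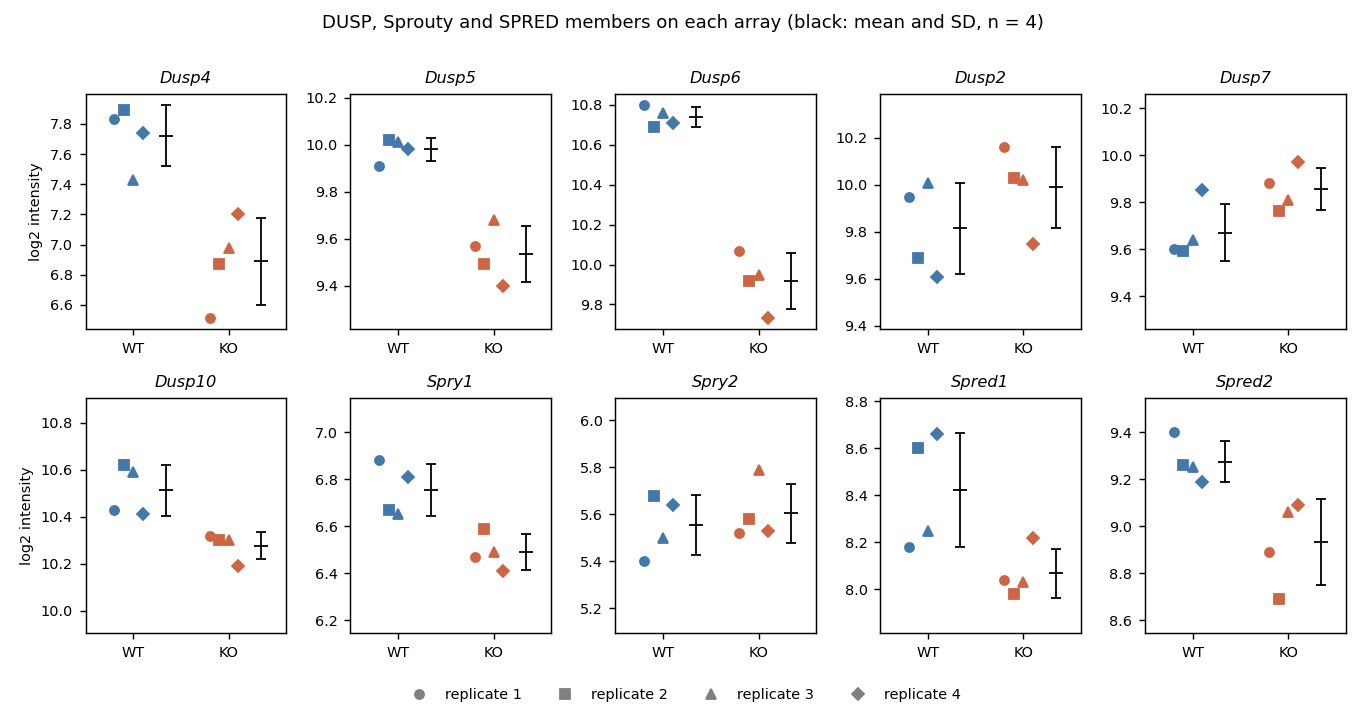
Log2 intensity of the 10 genes on each array, with WT in blue, KO in orange, a symbol for each replicate and the mean ± SD (n = 4) in black. Axis ranges differ between panels. Dusp6 shows the widest gap between the genotypes, 0.617 log2, while Dusp2, Dusp7, Spry2 and Spred1 overlap.

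Of the Sprouty genes, Spry1 was lower in KO and Spry2 was not. Spry1, an inhibitor of Ras activation that T cell receptor signalling induces, read 6.88, 6.67, 6.65 and 6.81 in WT and 6.47, 6.59, 6.49 and 6.41 in KO. The arrays did not overlap, but the gap was 0.062 log2 and the difference -0.26 ± 0.066 SE, 1.20-fold. Spry2 read 5.40, 5.68, 5.50 and 5.64 in WT and 5.52, 5.58, 5.79 and 5.53 in KO, a difference of 0.05 ± 0.082 SE. Its mean over all arrays, 5.58, lay just above the intensity filter of 5.56, so at this signal a change could be masked by background.

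Both SPRED genes stood lower in KO. SPRED proteins bind neurofibromin, the Ras inactivator encoded by Nf1, and bring it to the membrane. Spred1 read 8.18, 8.60, 8.25 and 8.66 in WT and 8.04, 7.98, 8.03 and 8.22 in KO. KO replicate 4 lay above WT replicate 1 alone, and the difference of -0.35 ± 0.110 SE was 1.28-fold. Spred2 read 9.40, 9.26, 9.25 and 9.19 in WT and 8.89, 8.69, 9.06 and 9.09 in KO, a difference of -0.34 ± 0.090 SE or 1.27-fold, with no overlap.

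Counted together, 7 of the 10 genes had a lower mean in KO and 3 a higher one. The KO arrays were all below the WT arrays for 6 (Dusp4, Dusp5, Dusp6, Dusp10, Spry1 and Spred2) and above them for 0. Of all 11585 genes tested, 13.5% were separated downward and 6.79% upward. In the fit across all genes (limma, called at a Benjamini-Hochberg adjusted p under 0.05) the same 6 genes were called lower and 0 higher, beside backgrounds of 8.53% and 4.45%. At an unadjusted p under 0.05 these numbers were 7 and 1. Since the genes were chosen on this contrast, nothing is read from these shares. The median difference of the 10 genes was -0.30 log2, and that of all tested genes was -0.03.

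The size of the difference stayed nearest to its value for Dusp5, from -0.49 to -0.40 over every setting and left-out array tried. Dusp4 ranged from -0.93 to -0.63 and Dusp6 from -0.90 to -0.52, where the -0.52 came from averaging in the dim probe set. These arrays also chose the genes, so calls under other settings are given as a description and support nothing. Dusp4, Dusp5 and Dusp6 were called with each array left out in turn. Dusp10 was no longer called on leaving out WT array 2 or 3, or any KO array, with differences from -0.27 to -0.20 over the arrays left out in turn. For Spry1 this held for WT array 1 or 4, or KO array 1, 3 or 4 (-0.29 to -0.22), and for Spred2 for WT array 1, 2 or 3, or KO array 1 or 2 (-0.39 to -0.26). Spred1 was called lower without WT replicate 1, at -0.44. Dusp7 was called higher without WT replicate 4, at 0.25, so the count of 0 higher rested on that array. With the number in the sample title as a covariate Dusp10, Spry1 and Spred2 were not called, and Spred1 was.

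Within a genotype the 10 genes did not move as a block. After the genotype mean was subtracted from each array, the Pearson correlation over 8 arrays had a median of -0.06 over the 45 pairs of genes, with 19 pairs above 0. The extremes were -0.88 for Dusp2 with Spred1 and 0.82 for Dusp2 with Dusp6. Dusp4 and Dusp6, whose differences were alike in size, correlated at -0.78. KO replicate 1 had the lowest Dusp4 and the highest Dusp6 of the KO arrays, and KO replicate 4 the reverse. These values rest on few arrays, which share one normalization, and are descriptions only. The mean of the 10 genes deviated from its genotype mean by -0.036 to 0.055 log2. By the same measure the genes most like that mean were C130060C02Rik (r = 0.986), Snora69 (0.982), Zhx2 (0.979), Supt7l (0.969), AA543186 (0.967) and Prrt1 (0.965), each over 8 arrays and each with overlapping genotypes.

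Sequences just upstream of the start sites were read for 9 of the 10 genes from a RefSeq promoter table of mouse build GRCm38.p6. Dusp4 was not in that table. Each window holds the 250 bases before the start. The windows of Dusp5 and Dusp2 are shown because they alone among the 9 hold a match to the SRF or EGR motif, both of factors that ERK signalling engages, and that of Dusp6 because this gene had the widest gap. Capitals mark a CArG box, the site of serum response factor (SRF), or the EGR motif GCGNGGGCG, and lower case marks all other bases. The Dusp5 window lies at chr19:53528895-53529144 on the + strand, that of Dusp2 at chr2:127335909-127336158 on the + strand, and that of Dusp6 at chr10:99262981-99263230 on the + strand.
Dusp5: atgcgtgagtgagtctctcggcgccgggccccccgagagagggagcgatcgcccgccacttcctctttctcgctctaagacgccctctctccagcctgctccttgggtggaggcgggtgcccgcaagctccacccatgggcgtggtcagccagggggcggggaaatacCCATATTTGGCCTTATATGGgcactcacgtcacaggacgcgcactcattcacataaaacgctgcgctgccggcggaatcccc
Dusp2: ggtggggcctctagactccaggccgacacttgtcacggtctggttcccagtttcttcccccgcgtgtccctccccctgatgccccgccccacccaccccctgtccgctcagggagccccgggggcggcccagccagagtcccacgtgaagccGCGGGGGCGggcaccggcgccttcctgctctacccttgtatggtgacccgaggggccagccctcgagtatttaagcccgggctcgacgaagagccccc
Dusp6: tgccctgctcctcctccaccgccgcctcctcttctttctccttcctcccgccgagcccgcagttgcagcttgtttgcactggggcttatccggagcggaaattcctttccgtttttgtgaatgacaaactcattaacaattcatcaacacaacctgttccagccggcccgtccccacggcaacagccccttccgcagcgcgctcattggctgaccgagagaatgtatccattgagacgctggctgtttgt

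The Dusp5 window holds 2 CArG boxes that directly follow each other, beginning 82 and 72 bases before the start. A CArG box occurred in 1 of the 9 windows and in 1.13% of windows of tested genes (1.47% of all 32851 windows). The EGR motif GCGNGGGCG occurred in 1 of the 9, that of Dusp2, and in 8.72% of windows of tested genes. The GC-rich motif GGGCGG, bound by SP factors, occurred in 6 of 9 windows, against 56.81% of windows of tested genes. It can overlap the EGR motif. The cyclic AMP response core TGACG occurred in 2 of 9, Dusp5 and Spred2, against 26.59%. The ETS motif CCGGAA, the full cyclic AMP response element TGACGTCA, AP-1 motif TGANTCA and TATA motif TATAAA occurred in 0 of 9 windows. Their shares among windows of tested genes were 21.91%, 2.54%, 4.27% and 6.51%. The shorter ETS core GGAA was not counted, and the Dusp6 window shown holds it. Both strands were searched, and a match or its absence describes these letters only.

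The remaining relatives of the family, which were not among the genes picked, were compared next. Their list too was chosen with earlier results of these data known, so its direction is no independent evidence. Of 21 other DUSP, Sprouty and SPRED genes 13 passed the intensity filter, and of these 2 fell and 0 rose (limma, Benjamini-Hochberg over all genes; 5 and 0 at an unadjusted p under 0.05). Over all tested genes 8.53% fell and 4.45% rose. Their median difference as a list was -0.09, against -0.03 over all tested genes. Spred3, the remaining SPRED gene, fell by 0.41 ± 0.102 SE (adjusted p = 0.0294), with KO from 5.69 to 6.03 and WT from 6.10 to 6.47. Dusp19, an atypical phosphatase, fell by 0.25 ± 0.070 SE (adjusted p = 0.0409). Spred3 was no longer called on leaving out WT array 2, 3 or 4, or KO array 2 or 4 (largest adjusted p 0.0723), nor was Dusp19 on leaving out any array but WT 1 (largest 0.102).

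Among the relatives that were not called, Dusp16, which like Dusp10 acts on JNK and p38, stood at -0.28 (adjusted p = 0.0516, and 0.0133 without KO replicate 1), and Dusp22 at -0.32 (0.0895). Dusp1, the immediate-early member of the nuclear group, read 9.84, 9.78, 9.77 and 9.78 in WT and 9.76, 9.64, 9.68 and 9.49 in KO. Its arrays did not overlap, but its difference of -0.15 ± 0.062 SE did not pass (adjusted p = 0.143). Spry4 stood at -0.09 (adjusted p = 0.530), Dusp9 at -0.09 (0.419) and Dusp14 at -0.07 (0.441). Dusp11 and Dusp12 stood at 0.12 and 0.09 (0.221 and 0.381), and Dusp23, Dusp27 and Dusp28 lay between -0.01 and 0.02. Dusp3, Dusp8, Dusp13, Dusp15, Dusp18, Dusp21, Dusp26 and Spry3 were below the filter and were not tested.

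**Figure D2:**
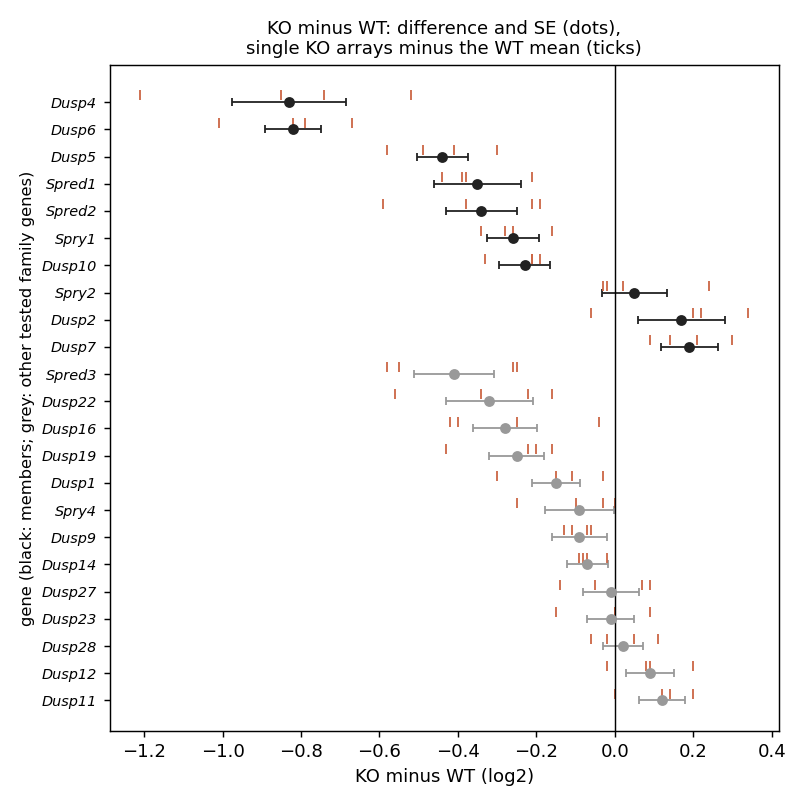
KO minus WT on the log2 scale for the 10 genes (black) and the 13 tested relatives (grey), as the difference ± SE of the fit, with orange ticks for each KO array minus the WT mean. Dusp4 at -0.83 and Dusp6 at -0.82 lie farthest to the left, and Dusp7 at 0.19 farthest to the right.

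Genes listed around the cascade that the family restrains, among them an exchange factor for Rap1, moved both ways. Of 26 genes listed for it, 18 were tested, 2 rose and 1 fell (6 and 2 at an unadjusted p under 0.05, limma), beside 4.45% and 8.53% of all tested genes, and their median difference was 0.02. Map2k1, which encodes the kinase MEK1, stood at -0.15 ± 0.065 SE (adjusted p = 0.159). Rasgrp4, an exchange factor that activates Ras, fell by 0.81 ± 0.121 SE, 1.75-fold (adjusted p = 0.00368), from 8.83 to 9.31 in WT to 8.02 to 8.49 in KO. Rasgrp2, an exchange factor for Rap1, rose by 0.39 ± 0.059 SE (adjusted p = 0.00410) and the Ras relative Rras2 by 0.27 ± 0.068 SE (adjusted p = 0.0320). Rras2 was no longer called on leaving out KO array 1 or 4, or WT array 2 or 3 (largest adjusted p 0.0880). Ksr2, a scaffold of the cascade, stood at 0.43 (adjusted p = 0.0571, and 0.00675 without KO replicate 4).

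Other brakes on Ras and ERK moved both ways. Of 18 tested, 2 rose and 2 fell (3 and 5 at an unadjusted p under 0.05, limma), with a median of -0.04. Among all tested genes 4.45% rose and 8.53% fell. Ptpn7, a tyrosine phosphatase of lymphocytes that acts on ERK, fell by 0.32 ± 0.058 SE (adjusted p = 0.00865), and its 4 WT arrays lay between 10.13 and 10.15 with KO between 9.70 and 9.91. Nf1, the partner of the SPRED proteins, fell by 0.34 ± 0.087 SE (adjusted p = 0.0323). Pea15a, which holds ERK in the cytoplasm, rose by 0.31 ± 0.061 SE (adjusted p = 0.0117), and Dgka, which removes the diacylglycerol that recruits RasGRP proteins, by 0.18 ± 0.044 SE (adjusted p = 0.0278). Nf1 was no longer called on leaving out WT array 1, 2 or 4, or KO array 2, 3 or 4 (largest adjusted p 0.0833). The same held for Dgka with KO array 1 or 3, or WT array 2 or 3 (largest 0.0795).

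Early genes that ERK induces moved both ways, and the EGR genes fell. Of 22 tested, 5 fell and 2 rose (9 and 2 at an unadjusted p under 0.05, limma), with a median of -0.07. Among all tested genes 8.53% fell and 4.45% rose. The list was chosen with these results in view, so its direction is no independent evidence. Egr1 read 9.82, 9.77, 9.94 and 9.66 in WT and 9.46, 9.43, 9.48 and 9.38 in KO, without overlap, and fell by 0.36 ± 0.063 SE (adjusted p = 0.00733). Egr2 and Egr3, zinc finger factors like Egr1, fell by 0.34 ± 0.080 SE and 0.37 ± 0.084 SE (adjusted p = 0.0237 and 0.0205). The orphan receptor gene Nr4a1 fell by 0.31 ± 0.065 SE (adjusted p = 0.0152) and the ETS factor Etv5 by 0.42 ± 0.117 SE (adjusted p = 0.0438). Egr2 was no longer called on leaving out array 3 or 4 of either genotype (largest adjusted p 0.0556), Egr3 on leaving out KO array 1, or WT array 2 or 3 (largest 0.0592), and Etv5 on leaving out any array but WT 1 and KO 4 (largest 0.104).

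Of the AP-1 genes, Jun rose and Fos was not called. Jun rose by 0.91 ± 0.225 SE (adjusted p = 0.0288), from 8.52, 9.44, 8.96 and 9.14 in WT to 10.16, 10.02, 9.32 and 10.20 in KO, with KO replicate 3 inside the WT range. Jun was no longer called on leaving out WT array 1 or 3, or KO array 1, 2 or 4 (largest adjusted p 0.0791). Fos read 7.32, 7.66, 7.40 and 7.43 in WT and 8.13, 7.92, 6.79 and 8.18 in KO, so that KO replicate 3 was the lowest of all arrays and the others were above WT (0.31 ± 0.266 SE, adjusted p = 0.488, and 0.00657 without KO replicate 3). Id3, named after its value was seen, rose by 0.26 ± 0.073 SE (adjusted p = 0.0475), and was no longer called on leaving out any of the 8 arrays (0.0513 to 0.119).

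Transcription factors downstream of ERK and genes of the parallel stress kinases were counted in the same way, beside falls in 8.53% and rises in 4.45% of all tested genes. Of 14 tested SRF and ETS factors 3 fell and 0 rose (4 and 1 at an unadjusted p under 0.05, limma), namely Etv6 by 0.34 ± 0.068 SE (adjusted p = 0.0135), Elk3 by 0.23 ± 0.049 SE (0.0147) and Srf by 0.22 ± 0.052 SE (0.0241). Srf encodes the factor that binds CArG boxes, and Elk3 a partner of it. Srf was no longer called on leaving out KO array 1 or 3, or WT array 2 or 3 (largest adjusted p 0.0705). Mrtfa, an SRF coactivator, stood at 0.20 (adjusted p = 0.0661, and 0.0449 without WT replicate 1). Of 16 tested genes of the JNK and p38 cascade 2 fell and 0 rose (5 and 0 at an unadjusted p under 0.05, limma). The p38 isoform gene Mapk11 fell by 0.36 ± 0.068 SE (adjusted p = 0.00990). Map2k6, which activates p38, fell by 0.32 ± 0.087 SE (adjusted p = 0.0415), but not on leaving out any array but WT 1 (largest 0.102). Mapk9 stood at -0.12 (0.113) and Mapkapk2 at -0.20 (0.124, and 0.0174 without WT replicate 1).

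**Figure D3:**
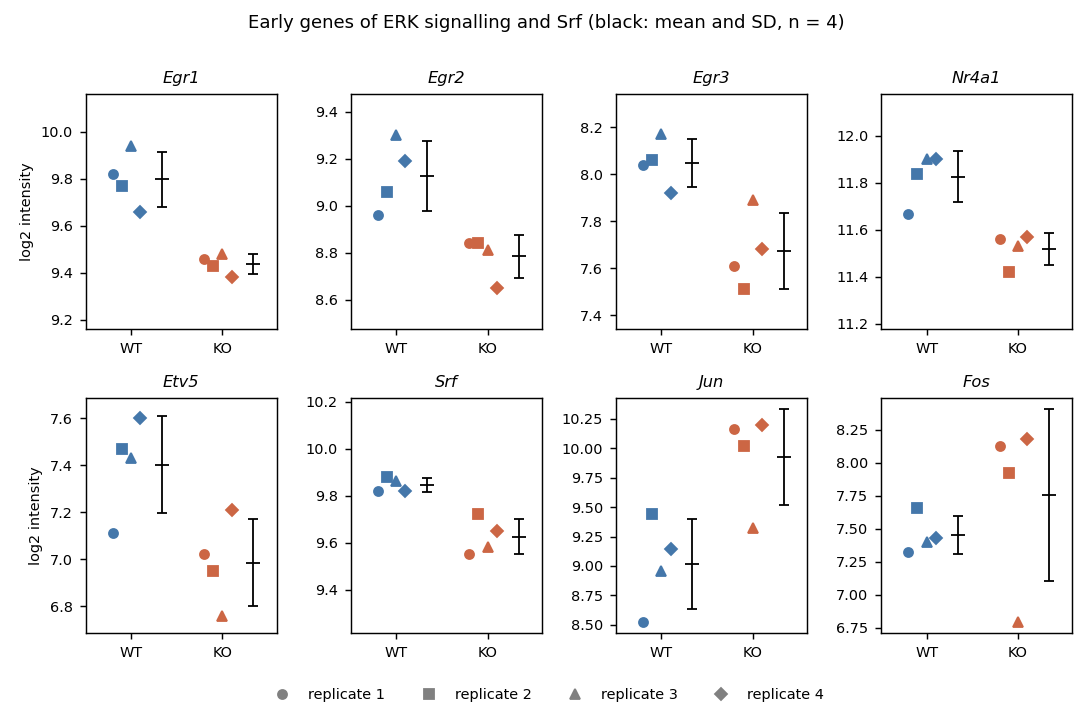
Log2 intensity of early genes of ERK signalling and of Srf on each array, with WT in blue, KO in orange, a symbol for each replicate and the mean ± SD (n = 4) in black. Axis ranges differ between panels. Egr1, Egr2, Egr3, Nr4a1 and Srf are lower in all KO arrays, whereas Jun and Fos are high in KO replicates 1, 2 and 4 and not in KO replicate 3.

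Several features of the sorted cells moved together with the family, and their part in these differences was not tested. In bulk RNA, fewer cells of a type and less RNA per cell cannot be told apart. As background to the counts of marker genes, 8.53% of all tested genes fell and 4.45% rose. CD4 lineage markers did not separate the genotypes, with 0 of 7 called (limma, 0 at an unadjusted p under 0.05) and list means of 11.21 to 11.26 in WT and 11.17 to 11.21 in KO. Pggt1b itself was lower in KO, 7.75 against 8.35 (log2 difference -0.59 ± 0.072 SE, adjusted p = 0.00141). Markers of recently selected thymocytes fell in 6 of 9 and rose in 0 (9 and 0 at an unadjusted p under 0.05), with list means of 10.23 to 10.46 in WT and 9.92 to 10.09 in KO. This list shares Nr4a1, Egr2 and Cd69 with the early genes that ERK induces. The falls of Nr4a1 and Egr2 are therefore counted in both lists, and that of Nr4a1 again among the dissociation genes below. Cd24a, a surface protein lost on maturation, fell by 0.75 ± 0.126 SE (adjusted p = 0.00584), the inhibitory receptor gene Pdcd1 by 0.55 ± 0.086 SE (0.00447) and Tox by 0.29 ± 0.053 SE (0.00841). Markers of mature thymocytes rose in 6 of 9 and fell in 0 (7 and 0 at an unadjusted p under 0.05), with list means of 10.56 to 10.70 in WT and 10.87 to 10.90 in KO. Klf2, which drives genes of thymic exit, rose by 0.68 ± 0.091 SE (adjusted p = 0.00206).

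Markers of minor populations also differed, beside falls in 8.53% and rises in 4.45% of all tested genes. Regulatory T cell markers fell in 3 of 9 (Tnfrsf4, Tnfrsf18 and Capg, by 0.49, 0.32 and 0.29) and were lower in 6 at an unadjusted p under 0.05, with list means of 8.74 to 8.87 in WT and 8.50 to 8.64 in KO, while the defining factor Foxp3 stood at 0.17 (adjusted p = 0.505). CD8 lineage markers fell in 2 of 6, Crtam by 0.78 and Cd8a by 0.74, and were lower in 4 at an unadjusted p under 0.05, with list means of 7.95 to 8.14 in WT and 7.57 to 7.73 in KO, and Cd8a was also the only called gene of 8 double-positive thymocyte markers, of which 2 were lower at an unadjusted p under 0.05. Innate-like T cell markers fell in 4 of 7 (Nkg7, Il2rb, Sox13 and Zbtb16, the last named after its value was seen) and rose in 1, Klrd1, by 2.90 ± 0.244 SE. Klrd1 averaged 5.03 in WT, below the intensity filter of 5.56, and 7.93 in KO. It was therefore tested only because of its level in KO, and background limits its WT value. The list median was -0.37, and 6 of the 7 tested genes had a lower mean in KO. The list means in KO, 7.21 to 7.35, lay inside the WT range, which reached 7.65, and hold the rise of Klrd1. Proliferation markers fell in 5 of 9 and were lower in all 9 at an unadjusted p under 0.05, with a median of -0.55 and overlapping list means of 8.41 to 8.95 in WT and 8.08 to 8.45 in KO. The 5 that fell were Mcm2, Mcm5, Cdk1, Top2a and, named after its value was seen, Mki67. On leaving out single arrays the largest adjusted p was 0.0893 for Cd8a (WT 2 or 3, KO 2 or 4), 0.0794 for Sox13 (any but WT 3 and KO 2) and 0.106 for Zbtb16 (WT 2 or any KO array). It was 0.0550 for Cdk1 (WT 2 or 3, KO 1), 0.0753 for Top2a and 0.113 for Mki67 (any but array 4 of either genotype). The arrays in parentheses are those whose loss ended the call. Myeloid and dendritic markers were called in 0 of 6 (1 at an unadjusted p under 0.05, limma), and stromal markers in 1 of 6, Pecam1, higher by 0.24 (up to 0.0769, any but WT 1 and KO 4). Of 7 B cell markers with a probe set 6 were below the filter, and the remaining gene was not called. The 1 erythroid marker with a probe set was below the filter.

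Lists of genes of the handling response averaged higher in KO replicates 1, 2 and 4 than in any WT array, but not in KO replicate 3. The heat-shock list averaged 8.16 to 9.16 in WT and 9.79, 9.46, 8.00 and 9.29 in KO replicates 1 to 4. Of its 8 genes 0 were called (limma, 0 at an unadjusted p under 0.05). The list of early genes induced by tissue dissociation averaged 8.89 to 8.99 in WT and 9.19, 9.13, 8.95 and 9.15 in KO replicates 1 to 4. Of its 14 tested genes Jun and Klf6 were higher and Nr4a1 lower, beside 4.45% and 8.53% of all tested genes. Jun and Nr4a1 are also counted among the early genes that ERK induces. Klf6 rose by 1.06 ± 0.075 SE (limma, adjusted p = 7.08e-05). It was above WT in every KO array, and was called with each array left out in turn. In KO replicate 3 Dusp6 stood 0.79 log2 below the WT mean, Dusp4 0.74 below and Dusp5 0.30 below. With the Hspa1a and Hspa1b mean as a covariate the differences of Dusp4, Dusp5 and Dusp6 were -0.72, -0.42 and -0.83, and Dusp10, Spry1 and Spred2 were no longer called. Without KO replicates 1 and 2 those of Dusp4, Dusp5 and Dusp6 were -0.63, -0.44 and -0.90, and Dusp6 alone of the 10 genes was called. The part of handling in these differences was not tested.

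**Figure D4:**
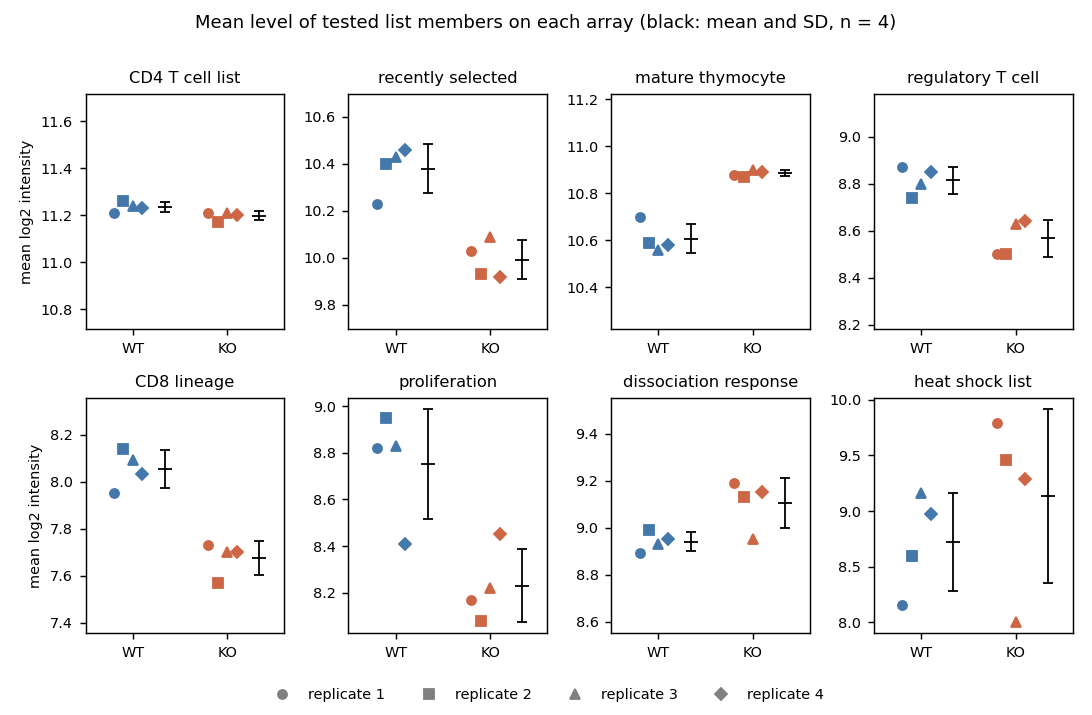
Mean log2 intensity of the tested genes of 8 lists on each array, with WT in blue, KO in orange, a symbol for each replicate and the mean ± SD (n = 4) in black. Axis ranges differ between panels. Recently selected, mature, regulatory T cell and CD8 lineage lists separate the genotypes, while the proliferation, dissociation and heat-shock lists overlap. In the dissociation and heat-shock lists KO replicate 3 alone of the KO arrays does not lie above the WT range.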

How the data were processed

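The deposited table holds log2 intensities for 41345 gene-level probe sets of Mouse Gene 2.0 ST arrays, the array type in the description label. The authors made them with RMA (Affymetrix Expression Console 1.1 in the submitters' processing notes), and array medians lay between 5.52 and 5.59. Build and annotation release are not stated in the sources used here. A platform annotation, which can be old, gives 1 symbol to 23521 probe sets, several to 1814, and does not list 16010. Each of 22180 genes was represented by its brightest probe set with 1 symbol, and the 11585 genes with a mean of at least 5.56, the median over all probe sets, were tested. The genotypes were compared in R 4.3.3 with limma 3.58.1 (a two-sided moderated test with genotype as its only term), and p-values were adjusted by Benjamini-Hochberg over all genes tested. A gene was called at an adjusted p under 0.05. The method was tested on simulated data.

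Members, lists and the rule for named genes were chosen with earlier results of these data known. The rule took every member and tested relative, of each pathway list up to 6 called genes by p, filled to 4 with genes not called, with Map2k1, Egr1, Egr2 and Fos in any case, of each marker list up to 4 called genes, and the 6 genes most like the mean of the members. Gene positions and promoters come from RefSeq (GRCm38.p6). Replicates were numbered within a genotype in order of deposit, and precision is limited by the number of arrays. The filter, the choice of probe set, the normalization, the weights, the prior, the threshold, covariates (title number, heat-shock level) and the arrays used were each varied in turn.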

Additional observations from a re-analysis of the deposited data

Results flagged for a closer look

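Among the 76 genes named with array values, each in 2 genotypes of 4 arrays, 5 of 152 groups had an array set apart from the other 3 by more than Dixon's 95% critical value, and chance gives about 1 in 20. For Dusp7, WT replicate 4 read 9.85 against 9.59 to 9.64 in the other WT arrays. For Dusp10, KO replicate 4 read 10.19 against 10.30 to 10.32. Of the genes around the family, Ksr2 read 7.15 in KO replicate 4 against 7.65 to 7.70, Mapkapk2 read 9.22 in KO replicate 2 against 9.11 to 9.12, and Klrd1 read 5.90 in WT replicate 4 against 4.65 to 4.85.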

How the results depend on the processing

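Over all genes 515 were called higher and 988 lower in KO, 34.3% higher, and with each array centred on its median 383 and 1321, 22.5% higher. All tested genes had a median change of -0.03 and -0.064 in these 2 scalings. No call of a named gene turned its direction under any alternative run. Of 6 members called lower, 3 were called with no filter, 3 over all probe sets, 3 at an adjusted p of 0.01, 2 at a fold of 1.5, 3 with heat shock as a covariate, 3 with the title number as a covariate (where Spred1 was called in addition, 4 in all), 3 after dropping WT replicates 2 and 3, and 1 after dropping KO replicates 1 and 2. With single arrays left out, 3 to 5 were called lower and 0 to 1 higher.

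The other counts moved as follows, where counts not given stayed within 1.5 times. With no filter 556 genes were lower, 1 relative fell, 1 gene of the Ras-ERK cascade rose, 1 other brake rose and 1 fell, 1 early gene rose and 1 gene of the JNK and p38 cascade fell. Over all probe sets these were 506, 0, 1, 1, 1, 0 and 1, with 2 early genes lower. At an adjusted p of 0.01, 206 genes were higher and 240 lower, 0 relatives fell, 1 cascade gene rose, 0 other brakes rose and 1 fell, 0 early genes rose and 1 fell, 0 SRF and ETS factors fell and 1 JNK and p38 gene fell. At a fold of 1.5, 88 genes were higher and 95 lower, 1 early gene rose, and in the lists 0 relatives, 0 cascade genes upward, 0 other brakes in either direction, 0 early genes downward, 0 SRF and ETS factors and 0 JNK and p38 genes were called. With heat shock as a covariate 524 genes were lower, 1 relative fell, 1 cascade gene rose, 1 other brake rose and 1 fell, 0 early genes rose and 1 JNK and p38 gene fell. With the title number as a covariate 1 relative fell, 0 early genes rose and 1 JNK and p38 gene fell. After a second quantile normalization 4 other brakes fell and 1 early gene rose. After centring 1 cascade gene, 1 other brake and 1 early gene rose. With array weights 1 early gene rose, and with an intensity trend 5 cascade genes, 1 early gene and 1 SRF or ETS factor rose. Without KO replicates 1 and 2, 136 genes were higher and 122 lower, 1 relative and 1 SRF or ETS factor fell, 0 cascade genes rose, and 0 other brakes, 0 early genes and 0 JNK and p38 genes were called in either direction. Without WT replicates 2 and 3, 150 genes were higher and 145 lower, and 0 genes of any of the 6 pathway lists were called. With single arrays left out, 302 to 496 genes were higher and 493 to 945 lower. The same ranges were 0 to 2 for relatives lower, 1 to 3 for cascade genes higher, 1 to 2 for other brakes in each direction, 0 to 2 for early genes higher and 2 to 7 lower, 0 to 1 for SRF and ETS factors higher, and 1 to 3 for JNK and p38 genes lower. Some of these runs had another number of genes, fewer arrays or a stricter threshold, and the cause of the moves was not tested. The difference of Dusp6 was -0.52 with both probe sets averaged, and that of Dusp10 was -0.14 without WT replicates 2 and 3.

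No paired analysis was possible because the labels give no replicate numbers that the genotypes share. Signal near background limits Spry2 and the untested relatives, and 4 arrays a genotype limit the smaller differences.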
